A study of Homo sapiens with 12 samples.

Results

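Cells that receive a growth factor signal through ERBB receptors and the RAS-ERK cascade switch on a set of inhibitors that damp the same signal. LRIG1 and ERRFI1 act on the receptors, Sprouty and SPRED proteins act between receptor and RAF, and the phosphatases DUSP4, DUSP5 and DUSP6 remove phosphate from ERK itself. Since most of these genes are themselves induced by ERK, their transcripts are widely read as a measure of ERK output as well as of its restraint. The 10 genes described here are LRIG1, ERRFI1, SPRY1, SPRY2, SPRY4, SPRED1, SPRED2, DUSP4, DUSP5 and DUSP6. They were chosen by name for these roles, with earlier results of these data known. Counts and medians of the members set against all genes are therefore descriptions. Every probe set that the platform annotation assigns to a member alone was used. The members were covered by 22 of the 54675 probe sets, and 10 of the 19775 genes with such a probe set were members.

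The 4 lines studied all go back to SKBR-3, a breast cancer line with amplified ERBB2 (HER2), and each was measured on 3 arrays, 1 per biological replicate. SKR6 was sorted from SKBR-3 for high HER2, and the 3 other lines were made from SKR6. SKR6-Vector carries the empty pQCXIP retroviral vector. SKR6CA carries a retrovirus for constitutively active p65 (CAp65), the RELA subunit of NF-kB. Both were selected with puromycin. SKR6LR was exposed for several months to lapatinib, which blocks the kinases of EGFR and HER2, at 0.2 rising to 5 µM, and was neither transduced nor puromycin selected as far as the labels say. All lines were grown in serum for 48 hours before RNA was taken. The labels add that cells called SKLR were kept in 0.2 µM lapatinib, a name given to none of the samples, so whether drug was present in the SKR6LR cultures is not spelled out. They also do not say whether any line is a clone or a pool, or whether replicates were separate derivations, so p-values measure the spread among these cultures. The mean over 9 luminal and HER2 genes was 12.01 to 12.15 on the arrays of SKR6, SKR6-Vector and SKR6CA and 11.46 to 11.73 in SKR6LR. Against SKR6, ERBB2, its neighbours GRB7 (-1.28) and STARD3 (-1.02) and the keratin gene KRT19 (-0.94) were lower in SKR6LR, and KRT8 and KRT18 were higher. CDH1, at 4.14 to 4.41, was low throughout, as is known of SKBR-3. Some markers of other cell types differed too. Both measured basal keratins, KRT5 and KRT14, were higher in SKR6LR than in SKR6, with a mean of 8.71 to 9.30 on its arrays and 4.92 to 5.39 elsewhere. COL3A1 was the 1 of 6 fibroblast markers called there (9.49 against 4.57), CD14 the 1 of 3 leukocyte markers (6.73 against 5.02, with PTPRC at 3.92 to 4.30), and CDH5 and VWF (0.615) 2 of 3 endothelial markers, with PECAM1 not called. CDH5 averaged 5.14, 8.10, 8.22 and 8.98 in SKR6, SKR6-Vector, SKR6CA and SKR6LR. Their part in the differences described was not tested.

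The 10 genes did not move as a block. In SKR6LR the Sproutys, DUSP4 and LRIG1 were lower than in SKR6, whereas DUSP5, ERRFI1 and SPRED2 were higher, and DUSP6 and, on its brightest probe set, SPRED1 showed no detectable difference. With active p65, DUSP6 was 4.18-fold lower than in SKR6-Vector, and SPRY2, SPRED1, SPRY4 and ERRFI1 fell by less. Against SKR6, the differences of SPRY2 (-0.029) and SPRED1 (0.28) in SKR6CA were not called, as defined below. Levels below are log2 values made by robust multi-array averaging (RMA), in which 1 unit is a doubling. A difference is called where limma's p is under 0.05 after Benjamini-Hochberg adjustment across the 19775 genes, and each SE rests on a spread pooled over the 4 lines.

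In SKR6LR against SKR6, 8 of the 10 genes were called, 3 higher and 5 lower, where 52.3% of all genes were called, 21.4% higher and 31.0% lower. The median absolute log2 difference was 1.4 over the members and 0.24 over all genes. These shares and medians, here and below, were not matched for level, and RMA compresses differences at low levels. The mean level of SPRY2 lay at percentile 34.5 of all genes, and those of the other members at 53.6 (DUSP6) to 88.4 (DUSP4). In SKR6CA against SKR6-Vector 5 members were lower and 0 higher, where 26.6% of all genes were called, 14.9% lower and 11.7% higher; at an unadjusted p under 0.05 DUSP5 was the only higher member. The median absolute difference was 0.37 over the members and 0.12 over all genes. In SKR6-Vector against SKR6 2 members were higher and 2 lower, where 25.7% of all genes were called, 12.2% higher and 13.4% lower, and in SKR6CA against SKR6 1 was higher and 4 lower, where 24.3% were called, 9.97% higher and 14.4% lower. The comparisons share arrays: the SKR6-Vector arrays enter with opposite signs in the second and the third, and SKR6 is the control of the first, the third and the fourth. All 10 members were called in at least 1 of the first 3 comparisons, as were 60.8% of all genes, and SPRY2 and SPRY4 were called in all 3, as were 12% of genes. The arrays of the lines compared did not overlap for 8 members in SKR6LR against SKR6 (57.9% of all genes), 8 in SKR6CA against SKR6-Vector (45.5%), 8 in SKR6-Vector against SKR6 (48.2%) and 6 in SKR6CA against SKR6 (45.5%). Of the 22 member probe sets tested singly, 3 were higher and 9 lower in SKR6LR against SKR6, where 43.9% of all probe sets were called, and 0 higher and 9 lower in SKR6CA against SKR6-Vector, where 19.3% were; the DUSP5 probe set was the one higher at an unadjusted p under 0.05. In SKR6-Vector against SKR6 4 were higher and 3 lower (17.2% of all probe sets called), and in SKR6CA against SKR6 0 were higher and 7 lower (16.6%).

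**Figure D1:**
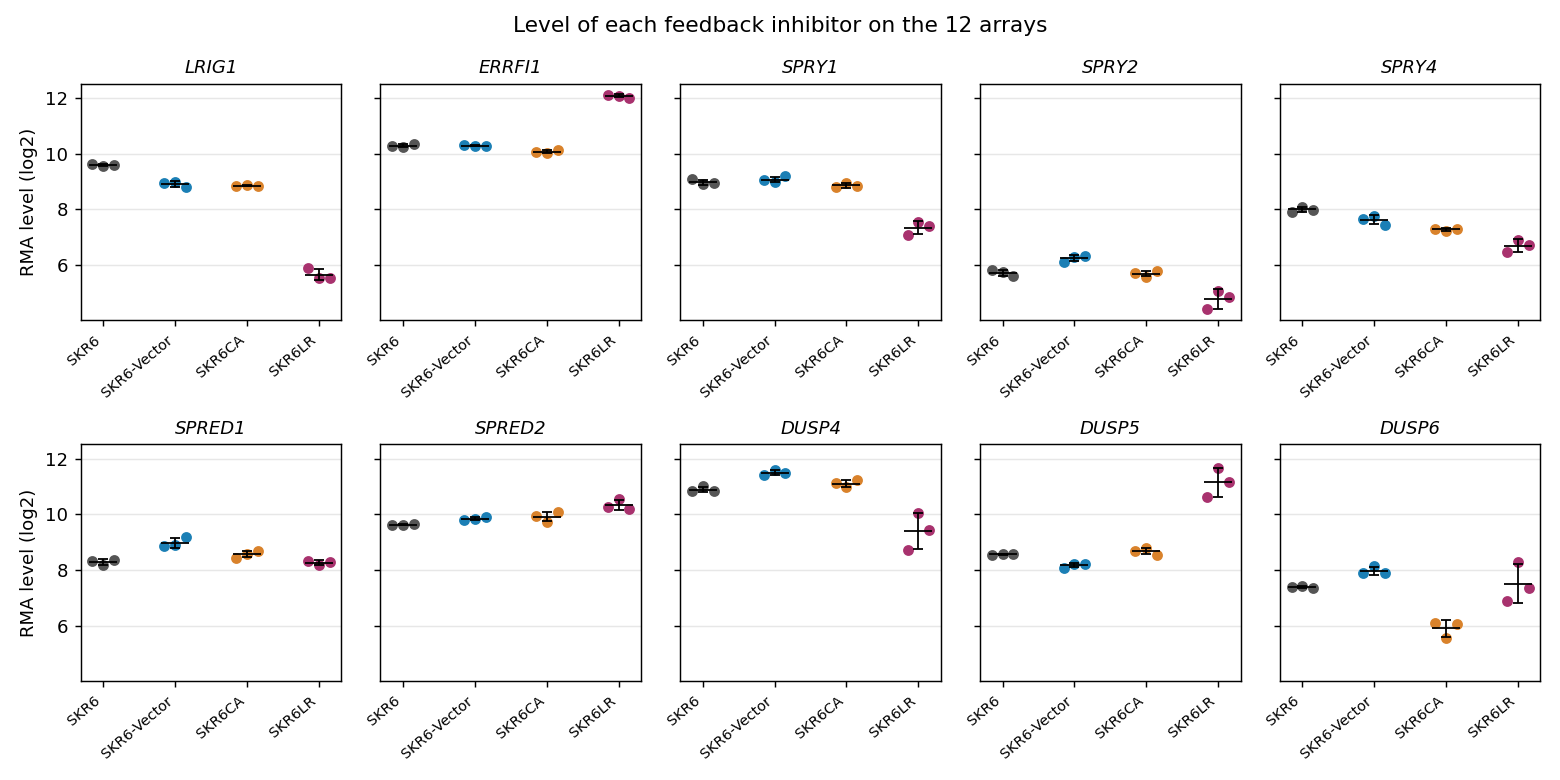
RMA level (log2, vertical axis) of each of the 10 genes on the 12 arrays, by line; coloured points are single arrays and black bars the mean and SD of 3. LRIG1 drops to 5.65 in SKR6LR, ERRFI1 and DUSP5 climb there to 12.07 and 11.16, and DUSP6 is lowest in SKR6CA at 5.91.

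LRIG1 (chr3:66378797-66501121 on GRCh38.p14, the build of all positions given) is a transmembrane leucine-rich repeat protein that promotes the breakdown of ERBB receptors. On its probe set 211596_s_at the SKR6 arrays read 9.64, 9.54 and 9.59, the SKR6-Vector arrays 8.94, 8.98 and 8.80, the SKR6CA arrays 8.84, 8.87 and 8.82, and the SKR6LR arrays 5.88, 5.54 and 5.53. The SKR6 arrays were highest, the transduced lines lay together below them, and the SKR6LR arrays were far below all 9 others. LRIG1 was 15.4-fold lower in SKR6LR than in SKR6 (log2 difference -3.94, SE 0.0884, adjusted p = 1.5e-12), and 1.51% of genes differed by as much or more. The SKR6LR mean of 5.65 was below the array medians of 5.74 to 5.77, at the low end of the scale where RMA compresses differences, so the size of the fold is uncertain. It was also lower than SKR6 in SKR6-Vector (-0.69, SE 0.0884, adjusted p = 0.000103) and in SKR6CA (-0.74, SE 0.0884, adjusted p = 7.03e-05), while the transduced lines did not differ detectably from each other (-0.059, 95% interval -0.25 to 0.13, adjusted p = 0.714). The active p65 line therefore shared its lower LRIG1 with its empty vector control. The 3 other LRIG1 probe sets stayed between 3.92 and 5.23 on all arrays and were not called in any of these comparisons. When all 4 were averaged, the difference in SKR6LR shrank to -0.98 and kept its call (adjusted p = 1.26e-07), while those in SKR6-Vector (-0.16, adjusted p = 0.0542) and in SKR6CA against SKR6 (-0.12, adjusted p = 0.153) lost theirs. All 4 are of the _s_at or _x_at kind, which can match more than 1 transcript.

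ERRFI1 (also MIG6, chr1:8011727-8026309) binds the kinase domain of EGFR and HER2 and blocks it. Its only probe set read 10.27, 10.24 and 10.33 in SKR6, 10.31, 10.26 and 10.28 in SKR6-Vector, 10.06, 10.02 and 10.13 in SKR6CA, and 12.12, 12.08 and 12.01 in SKR6LR. SKR6LR stood above every other array and SKR6CA slightly below every other array, while SKR6 and SKR6-Vector overlapped. ERRFI1 was thus 3.46-fold higher in SKR6LR than in SKR6 (1.79, SE 0.0562, adjusted p = 3.31e-11). In SKR6CA it was lower by a small amount, against SKR6-Vector (-0.21, SE 0.0562, adjusted p = 0.0142) and against SKR6 (-0.21, SE 0.0562, adjusted p = 0.0178). The first of these small falls lost its call without SKR6-Vector replicate 1 (adjusted p = 0.0551) or SKR6CA replicate 2 (0.0604), with 0.00325 to 0.0604 over all its alternatives. The second lost it without SKR6 replicate 3 (0.0784), without SKR6CA replicate 2 (0.0712) and under cyclic loess (0.0529), with 0.00384 to 0.0784 over all. The 2 inhibitors that act on the receptors therefore went in opposite directions in SKR6LR. The receptors themselves also diverged there: EGFR was higher than in SKR6 by 4.68 (SE 0.0644) and ERBB2 was lower, at -1.38 (SE 0.0566).

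The Sprouty proteins are induced by growth factors and block RAS-ERK signalling downstream of the receptor. All 3 measured here were lowest in SKR6LR. SPRY1 (chr4:123396795-123403760, probe set 212558_at) read 9.07, 8.89 and 8.94 in SKR6, 9.04, 8.98 and 9.18 in SKR6-Vector, 8.79, 8.94 and 8.84 in SKR6CA, and 7.08, 7.53 and 7.40 in SKR6LR. SPRY2 (chr13:80335976-80341126) read 5.81, 5.73 and 5.60 in SKR6, 6.12, 6.29 and 6.32 in SKR6-Vector, 5.71, 5.58 and 5.77 in SKR6CA, and 4.40, 5.07 and 4.86 in SKR6LR. SPRY4 (chr5:142310430-142325021) read 7.91, 8.08 and 7.99 in SKR6, 7.65, 7.77 and 7.45 in SKR6-Vector, 7.30, 7.23 and 7.29 in SKR6CA, and 6.46, 6.91 and 6.71 in SKR6LR. In each gene no SKR6LR array reached any array of another line. Against SKR6, SPRY1 was lower in SKR6LR by 3.09-fold (-1.63, SE 0.105, adjusted p = 3.31e-08), SPRY4 by 2.47-fold (-1.30, SE 0.108, adjusted p = 3.78e-07) and SPRY2 by 1.92-fold (-0.94, SE 0.138, adjusted p = 7.43e-05). SPRY2 lay near the low end of the array, where RMA compresses differences, with a mean over all arrays of 5.60 and no detection call to go by.

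Because the 3 Sprouty transcripts fell together in SKR6LR, the 150 bases before a transcription start of each are shown, from RefSeq on GRCh38.p14, 5′ to 3′ on the gene's strand, with motif matches in capitals.
SPRY1 (chr4:123398236-123398385, plus strand): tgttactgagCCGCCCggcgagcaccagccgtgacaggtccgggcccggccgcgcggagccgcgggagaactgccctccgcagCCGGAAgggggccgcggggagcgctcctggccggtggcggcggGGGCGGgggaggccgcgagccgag
SPRY2 (chr13:80341127-80341276, minus strand): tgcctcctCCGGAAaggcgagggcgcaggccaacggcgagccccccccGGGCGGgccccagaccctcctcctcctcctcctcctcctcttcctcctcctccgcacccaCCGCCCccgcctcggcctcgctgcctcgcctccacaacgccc
SPRY4 (chr5:142324248-142324397, minus strand): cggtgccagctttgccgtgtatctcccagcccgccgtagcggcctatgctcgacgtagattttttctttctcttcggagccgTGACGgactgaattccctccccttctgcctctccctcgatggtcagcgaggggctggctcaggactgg
SPRY1 has 2 and SPRY2 3 starts in that table, and the start whose window held the most matches is shown. Windows of 250 bases before to 50 after each start were searched on both strands for CCGGAA (the core bound by ETS factors, which ERK activates), TGACG (the core bound by CREB and ATF factors), TGACGTCA (the full CRE, which contains that core), TGANTCA (AP-1), CACGTG (E-box), GGGCGG (GC box) and an NF-kB-like motif. CCGGAA occurred in SPRY1 and SPRY2, TGACG in SPRY2 and SPRY4, and GGGCGG in all 3. Over all 35116 promoters searched, 17.2% held CCGGAA, 24.6% TGACG and 45% GGGCGG, so these matches are common and describe the letters alone. TGACGTCA (1.85% of promoters), CACGTG (7.26%) and the NF-kB-like motif (1.91%) were found in 0 of the 8 member genes with a promoter searched, and TGANTCA (7.71%) in LRIG1 and SPRED2.

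The Sproutys differed from one another in the transduced lines. SPRY4 stepped down from SKR6 to SKR6-Vector (-0.37, SE 0.108, adjusted p = 0.0231) and again to SKR6CA (-0.35, SE 0.108, adjusted p = 0.0321), so that SKR6, SKR6-Vector and SKR6CA each differed from the next. SPRY2 was raised in SKR6-Vector over SKR6 (0.53, SE 0.138, adjusted p = 0.0136), and SKR6CA lay below SKR6-Vector (-0.56, SE 0.138, adjusted p = 0.00932) but not detectably away from SKR6 (-0.029, adjusted p = 0.918). SPRY1 on its brighter probe set showed no called difference among these 3 lines. SKR6-Vector against SKR6 gave 0.10, SKR6CA against SKR6-Vector -0.21 and SKR6CA against SKR6 -0.11. On its second probe set, 230212_at, the same comparisons gave -0.42 for SKR6-Vector against SKR6 (adjusted p = 0.0172), -0.42 for SKR6CA against SKR6-Vector (adjusted p = 0.0165) and -0.84 for SKR6CA against SKR6 (adjusted p = 0.000181), adjusted over every probe set. So the SPRY1 probe sets had opposite signs for SKR6-Vector against SKR6. In SKR6CA both were lower against either control, with calls on 230212_at alone. For SKR6LR against SKR6 they gave like values, at -1.63 and -1.44. The steps of SPRY4 rested on few arrays. The first lost its call without SKR6 replicates 2 or 3 or SKR6-Vector replicates 1 or 3 (adjusted p = 0.0533 to 0.105; 0.0017 to 0.105 over all alternatives), and the second without any compared array other than SKR6-Vector replicate 3 (0.0668 to 0.135; 0.00403 to 0.135 over all). The rise of SPRY2 in SKR6-Vector lost its call without SKR6 replicate 3 (0.0589) or SKR6-Vector replicate 3 (0.0533), with 0.000165 to 0.0589 over all.

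The SPRED proteins are relatives of the Sproutys that bring the RAS inactivator neurofibromin to the membrane. SPRED1 (chr15:38252836-38357249, 226837_at) read 8.32, 8.17 and 8.37 in SKR6, 8.86, 8.88 and 9.19 in SKR6-Vector, 8.44, 8.59 and 8.67 in SKR6CA, and 8.34, 8.17 and 8.29 in SKR6LR. It was highest in SKR6-Vector, with SKR6 and SKR6LR overlapping at the bottom. It rose in SKR6-Vector over SKR6 by 0.69 (SE 0.0982, adjusted p = 0.000214) and fell in SKR6CA from that level by 0.41 (SE 0.0982, adjusted p = 0.00739). SKR6CA against SKR6 gave 0.28 (adjusted p = 0.0572), so the sign of the p65 difference turned with the control used. That higher value was called under 11 of 24 alternatives (adjusted p = 0.0231 to 0.21 over all), among them 1 weight per line (0.0368), only the compared arrays (0.0275), and leaving out SKR6-Vector replicate 3, SKR6CA replicate 1 or SKR6LR replicates 1 or 2 (0.0266 to 0.0498). For SKR6LR against SKR6 the value was -0.015 (95% interval -0.23 to 0.20, adjusted p = 0.914). A second SPRED1 probe set, 235074_at, was lower in SKR6LR, with a difference of -0.57 (SE 0.114, adjusted p = 0.00108), and gave the same directions as the first in the other 2 comparisons; a dim one, 244439_at, was not called. The mean of the 3 was called lower in SKR6LR (-0.26, adjusted p = 0.00456; 0.00456 to 1 over all alternatives). SPRED2 (chr2:65307175-65432599, 212458_at) read 9.61, 9.61 and 9.65 in SKR6, 9.80, 9.84 and 9.89 in SKR6-Vector, 9.94, 9.74 and 10.07 in SKR6CA, and 10.25, 10.55 and 10.20 in SKR6LR. It was the one member of its family that rose in SKR6LR over SKR6 (0.71, SE 0.0974, adjusted p = 3.74e-05), and no SKR6LR array overlapped another line. Against SKR6 it was also called in SKR6CA (0.29, SE 0.0974, adjusted p = 0.0449), a call that was lost under 12 of 24 alternatives (adjusted p = 0.00692 to 0.528). Without any SKR6 or SKR6-Vector array, or without SKR6CA replicates 1 or 3, it was at 0.0598 to 0.182. The dim SPRED2 probe sets 212466_at and 214026_s_at were not called, and the mean of the 3 gave 0.17 in SKR6LR against SKR6, still called.

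**Figure D2:**
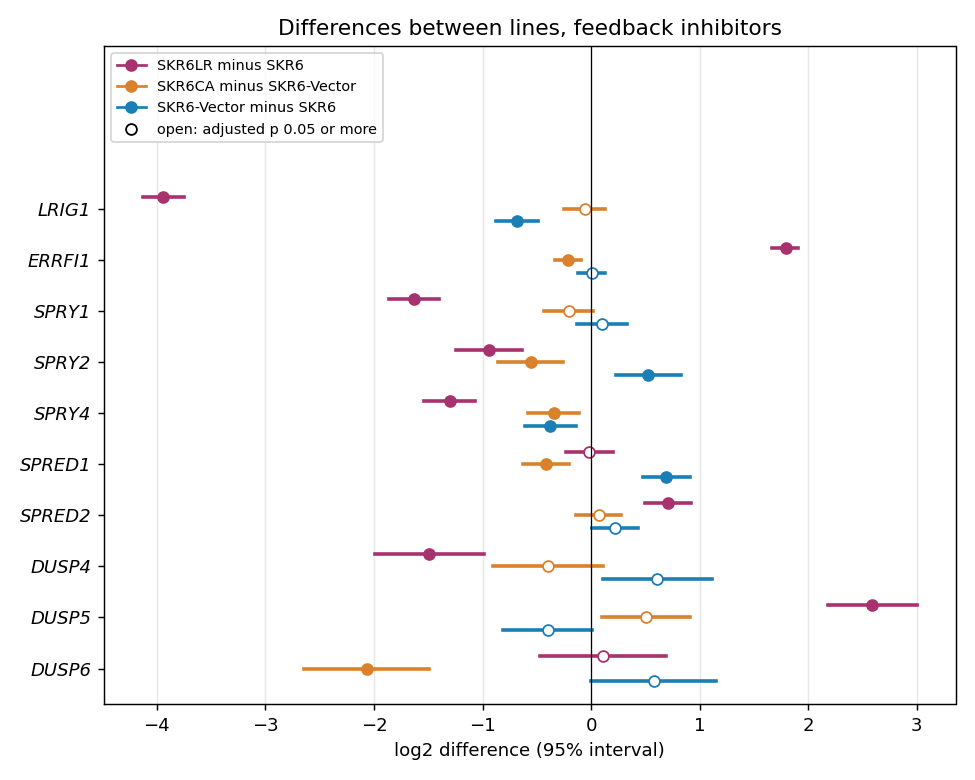
Log2 difference (horizontal axis) with its 95% interval for each gene in 3 comparisons; filled points have an adjusted p under 0.05. LRIG1, the Sproutys and DUSP4 lie left of 0 and DUSP5, ERRFI1 and SPRED2 right of 0 for SKR6LR, and DUSP6 stands at -2.06 for SKR6CA against SKR6-Vector.

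The 3 ERK phosphatases each behaved differently. DUSP6 (chr12:89347235-89352501) is a cytoplasmic phosphatase with high preference for ERK. Its probe set 208891_at read 7.40, 7.43 and 7.35 in SKR6, 7.90, 8.13 and 7.88 in SKR6-Vector, 6.11, 5.56 and 6.05 in SKR6CA, and 6.90, 8.27 and 7.35 in SKR6LR. Every SKR6CA array was below every other array, and on this probe set the SKR6LR arrays spanned the SKR6 and SKR6-Vector ranges. DUSP6 was 4.18-fold lower with active p65 than with the vector (-2.06, SE 0.264, adjusted p = 8.94e-05), a size reached by 0.501% of genes, and 2.8-fold lower than in SKR6 (-1.49, SE 0.264, adjusted p = 0.00132). The 2 other DUSP6 probe sets gave -2.69 (208892_s_at, adjusted p = 1.35e-05) and -1.64 (208893_s_at, adjusted p = 2.95e-05) against SKR6-Vector, and -2.00 (adjusted p = 0.000224) and -1.11 (adjusted p = 0.00092) against SKR6. The SKR6CA arrays read 4.12, 4.78 and 4.89 on 208892_s_at and 5.56 to 6.11 on 208891_at, near the low end, so the sizes of these differences are uncertain. The call held under all 24 alternatives for each control, at -2.17 to -1.89 and -1.59 to -1.31. In SKR6LR against SKR6 the value was 0.11 (95% interval -0.47 to 0.69, adjusted p = 0.761), so a difference within that interval was not detectable with these arrays. It was -0.27 without SKR6LR replicate 2. Against SKR6-Vector, SKR6LR was called lower on 208892_s_at (-0.85, adjusted p = 0.0209) and 208893_s_at (-0.55, adjusted p = 0.0243). On 208891_at it was not called (-0.47, adjusted p = 0.181), all 3 adjusted over every probe set. The DUSP6 promoter is shown in the same way, as that of the member that moved most with active p65. None of the motifs searched occurs in its window. A search of this window for fixed letters cannot show whether p65 acts on the gene, which was not tested.
DUSP6 (chr12:89352502-89352651, minus strand): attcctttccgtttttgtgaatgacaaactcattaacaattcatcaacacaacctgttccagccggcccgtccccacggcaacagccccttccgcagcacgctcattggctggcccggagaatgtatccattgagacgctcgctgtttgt

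**Figure D3:**
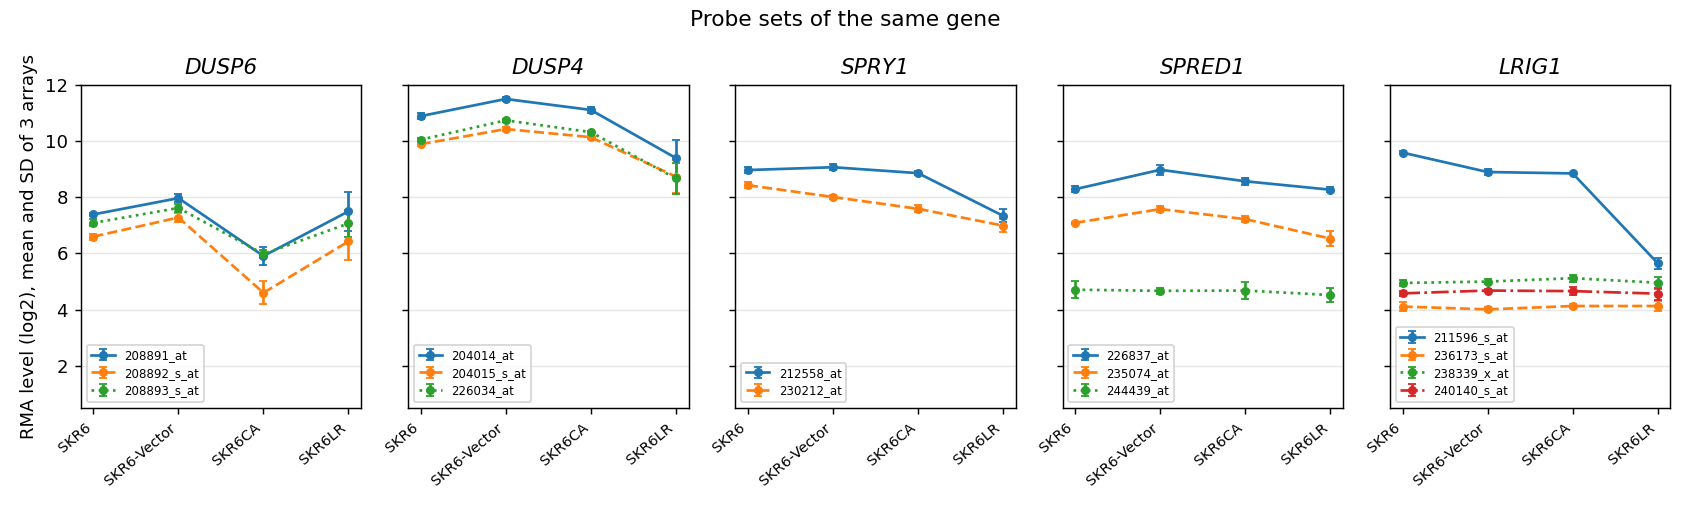
RMA level (log2) by line for each probe set of 5 genes; points are means and bars the SD of 3 arrays. The 3 DUSP6 probe sets share a low point in SKR6CA and the 3 DUSP4 probe sets one in SKR6LR, whereas the SPRY1 pair diverges in the transduced lines and only 1 of 4 LRIG1 probe sets moves.

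DUSP4 (chr8:29333064-29350684) is a nuclear phosphatase of ERK and other MAP kinases. It read 10.84, 11.01 and 10.82 in SKR6, 11.43, 11.59 and 11.48 in SKR6-Vector, 11.11, 10.99 and 11.22 in SKR6CA, and 8.73, 10.03 and 9.45 in SKR6LR (204014_at). The SKR6LR arrays were lowest without overlap, and widely spread. Against SKR6 DUSP4 was 2.81-fold lower in SKR6LR (-1.49, SE 0.23, adjusted p = 0.000111), and its 2 other probe sets gave -1.15 and -1.38. SKR6-Vector arrays all lay above SKR6 and SKR6CA arrays, with differences of 0.61 from SKR6 (adjusted p = 0.0756) and -0.39 for SKR6CA against SKR6-Vector (adjusted p = 0.266), neither of them called. The first was called on 226034_at (0.69, adjusted p = 0.0217).

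DUSP5 (chr10:110497907-110511533) is a nuclear phosphatase specific for ERK. It read 8.54, 8.58 and 8.58 in SKR6, 8.08, 8.21 and 8.21 in SKR6-Vector, 8.69, 8.78 and 8.55 in SKR6CA, and 10.63, 11.68 and 11.15 in SKR6LR. It stood opposite to DUSP4: highest in SKR6LR and lowest in SKR6-Vector, without overlap. DUSP5 was 6.01-fold higher in SKR6LR than in SKR6 (2.59, SE 0.187, adjusted p = 1.01e-07). SKR6-Vector against SKR6 gave -0.40 (adjusted p = 0.153) and SKR6CA against SKR6-Vector 0.51 (adjusted p = 0.0677), neither called.

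The uncalled phosphatase differences in the transduced lines depended on how the spread was estimated, since the pooled SE takes in the SKR6LR arrays, which spread more. With 1 weight per line, DUSP4 (0.61, adjusted p = 0.00107), DUSP6 (0.58, adjusted p = 0.00738) and SPRED2 (0.22, adjusted p = 0.0177) were higher and DUSP5 lower (-0.40, adjusted p = 0.00486) in SKR6-Vector than in SKR6. Over all alternatives the adjusted p ran from 0.000328 to 0.181 for DUSP4, 0.00098 to 0.317 for DUSP6, 0.00501 to 0.279 for SPRED2 and 0.000785 to 0.317 for DUSP5. In the same way DUSP5 was higher (adjusted p = 0.00217; 0.000786 to 0.183 over all) and DUSP4 lower (0.0318; 0.00359 to 0.46 over all) in SKR6CA than in SKR6-Vector. Single SKR6LR arrays decided these calls. Without SKR6LR replicate 1, DUSP4 and DUSP5 were called in both comparisons, and without replicate 2 so were DUSP6 and SPRED2 in SKR6-Vector against SKR6, DUSP4 in that comparison and DUSP5 in both.

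The effects in SKR6LR and with active p65 were also tested against each other, as the difference of SKR6LR minus SKR6 and SKR6CA minus SKR6-Vector, which share no array. It was called for 9 of the 10 members, 5 higher and 4 lower, where 45.4% of all genes were, 19.8% higher and 25.6% lower. ERRFI1 was the one member called in opposite directions, higher in SKR6LR and lower in SKR6CA, a difference between effects of 2.00 (SE 0.0795, adjusted p = 6.35e-10). DUSP6 differed by 2.17 (SE 0.373, adjusted p = 0.000351), falling with p65 and not detectably changed in SKR6LR. SPRY2, at -0.38 (adjusted p = 0.14), was not called. It was lower in both, at -0.94 and -0.56, though SKR6CA against SKR6 gave -0.029 (adjusted p = 0.918). SPRED1 was called on 226837_at (0.40, SE 0.139, adjusted p = 0.0341) and had the other sign on 235074_at (-0.21, adjusted p = 0.371 over every probe set, 36.1% of which were called).

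Within SKR6LR the arrays differed in an order shared by 6 of the 10 members. This order was picked out after the values were seen and is a description. All 3 Sproutys and all 3 phosphatases were lowest on replicate 1, intermediate on replicate 3 and highest on replicate 2, as were 22.2% of all genes, and the remaining 4 members were not. The gap from lowest to highest array was 1.37 for DUSP6, 1.30 for DUSP4 and 1.05 for DUSP5, and 1.02%, 1.18% and 2.24% of genes had as wide a gap in SKR6LR. In the other lines the gaps of these 3 genes were 0.05 to 0.56. As a measure of RNA integrity, the 3′ actin controls exceeded the 5′ ones by 1.19, 1.03 and 2.32 on SKR6LR replicates 1, 2 and 3, and 1.19 to 1.73 in the other lines; its part in this order was not tested. The SKR6LR counts of 3 higher and 5 lower were the same without replicate 3. Over all genes the replicate SD was 0.209 in SKR6LR and 0.0958 to 0.107 in the other lines.

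**Figure D4:**
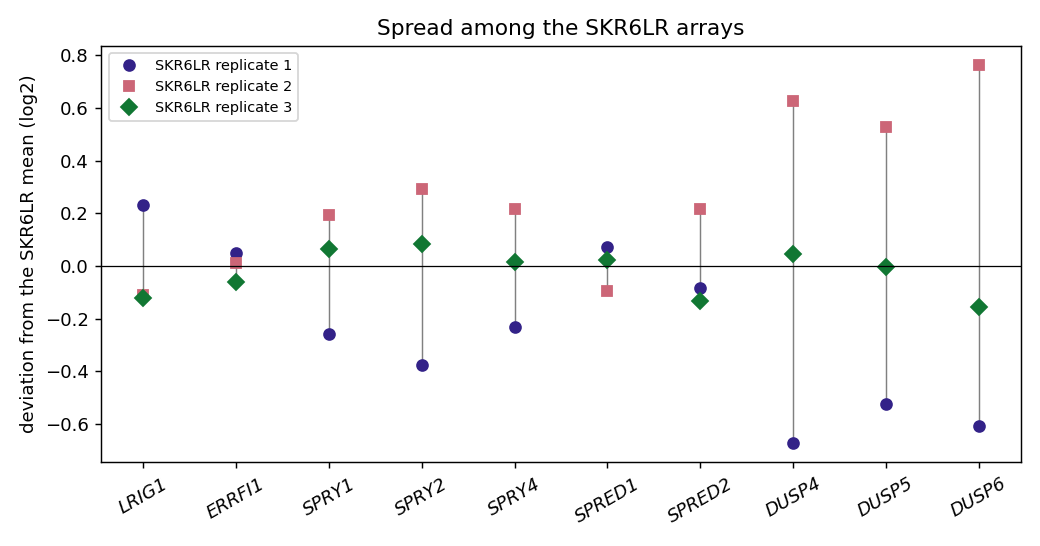
Deviation of each SKR6LR array from the mean of the 3 (log2, vertical axis) for each gene, by replicate; grey lines join the lowest and the highest. Replicate 1 is lowest and replicate 2 highest for the 3 Sproutys and the 3 phosphatases, with gaps above 1 for DUSP4, DUSP5 and DUSP6.

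Across the 12 arrays the members fell into opposed patterns, given here as a description, since the points share lines and SKR6LR dominates them. Of 45 pairs, 16 had a Pearson r above 0.5 and 16 below -0.5. LRIG1 and SPRY1 ran together (r = 0.956), as did SPRY2 and DUSP4 (0.972) and ERRFI1 and DUSP5 (0.949), and LRIG1 ran against ERRFI1 (-0.961). DUSP6 followed none of the others, with r of -0.169 to 0.304. Over the 9 arrays without SKR6LR several of these relations changed. LRIG1 with SPRY1 had r = 0.0474, LRIG1 with ERRFI1 0.50 and ERRFI1 with DUSP5 -0.681. SPRY2 with DUSP4 stayed at 0.889, and DUSP6 with ERRFI1 was 0.912. Among all other genes the pattern most like LRIG1 was that of DCTN3 (r = 0.9981), most like ERRFI1 DMKN (0.998), most like SPRY2 SOX9 (0.9901), most like DUSP5 EGLN3 (0.9961) and most like DUSP6 KLRG2 (0.9783), each over 12 arrays.

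The rest of the pathway gives the setting. Of all genes, 21.4% were called higher and 31.0% lower in SKR6LR against SKR6. The shares were 11.7% and 14.9% in SKR6CA against SKR6-Vector, and 12.2% and 13.4% in SKR6-Vector against SKR6. Several of the list counts below lie near these shares. Among 11 relatives of the members, 4 rose and 4 fell in SKR6LR against SKR6. DUSP1, an immediate-early MAP kinase phosphatase, rose by 1.50 (SE 0.134), while DUSP10, which prefers p38 and JNK, fell by 1.09 (SE 0.157) and LRIG3 by 1.01 (SE 0.109). In SKR6CA against SKR6-Vector 2 rose, DUSP9 (0.63) and LRIG3 (0.41), and 0 fell. DUSP16 (1.00) and DUSP1 (0.81) rose and DUSP9 fell by 0.73 in SKR6-Vector against SKR6. Of 13 other negative regulators with a value, 6 rose and 3 fell in SKR6LR, among them the ubiquitin ligase CBLC (1.31) and SOCS5 (1.31); 2 rose and 1 fell with p65, and 3 rose and 1 fell in SKR6-Vector.

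Of 14 components of the cascade, 4 rose and 9 fell in SKR6LR against SKR6, with a median of -0.43 where that of all genes was -0.058. The adaptor GAB1 rose by 2.55 (SE 0.103), the scaffold KSR1 by 1.72 (SE 0.0782) and the adaptor SHC1 by 1.05 (SE 0.12), while HRAS fell by 0.87 (SE 0.0821). In SKR6CA against SKR6-Vector 4 rose and 1 fell: MAP2K2 rose by 0.66, HRAS by 0.60 and MAPK3, which encodes ERK1, by 0.49, and GAB1 fell by 0.70. HRAS averaged 10.8, 9.86 and 10.47 in SKR6, SKR6-Vector and SKR6CA, and GAB1 7.54, 8.36 and 7.66. In the same order MAP2K2 averaged 9.48, 9.28 and 9.95, and MAPK3 9.1, 8.85 and 9.34. In SKR6-Vector against SKR6 HRAS fell by 0.94 and GAB1 rose by 0.83, among 4 that rose and 3 that fell; both comparisons use the SKR6-Vector arrays. Of 10 receptors and ligands 3 rose and 4 fell in SKR6LR against SKR6. Beside EGFR and ERBB2, given above, the ligand gene EGF fell by 5.08 (SE 0.0757) and HBEGF rose by 2.16 (SE 0.0922). The EGF mean in SKR6LR was 4.38, near the low end of the scale, so the size of its fall is uncertain. In each of the other 2 comparisons 2 rose and 2 fell. EGFR rose by 2.06 (SE 0.0644) and betacellulin (BTC) by 1.49 in SKR6-Vector against SKR6.

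Of 15 genes known to be driven by ERK, 9 rose and 4 fell in SKR6LR, with a median of 0.95 where that of all genes was -0.058. The receptor EPHA4 rose by 4.31 (SE 0.0912), PHLDA1 by 3.08 (SE 0.388) and FOS by 2.57 (SE 0.227), and EMP1 fell by 2.38 (SE 0.401). In SKR6CA against SKR6-Vector 4 rose and 4 fell. The transcription factors EGR1 and MAFF rose by 1.38 (SE 0.113) and 1.36 (SE 0.134), and EPHA4 and EPHA2 fell by 1.62 (SE 0.0912) and 0.72 (SE 0.14). EPHA4 averaged 5.65, 7.25 and 5.63 in SKR6, SKR6-Vector and SKR6CA, so SKR6CA lay at the SKR6 level. In the same order EPHA2 averaged 8.38, 8.47 and 7.74, EGR1 11.22, 11.07 and 12.45, and MAFF 10.05, 9.35 and 10.71. EPHA4 (1.60), FOS (1.25), PHLDA1 (1.24) and ETV1 (0.50) rose and MAFF fell by 0.69 in SKR6-Vector against SKR6. Called genes of the ERK-driven list went both ways in SKR6LR and with active p65. The called feedback inhibitors also went both ways in SKR6LR, and were all lower in SKR6CA against SKR6-Vector. In SKR6CA against SKR6, 4 were lower and SPRED2 (0.29) was higher, while SPRY2 (-0.029) and SPRED1 (0.28) were not called. In bulk RNA, fewer cells that express a gene and less RNA per cell cannot be told apart.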

How the data were processed

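RNA from 3 cultures of each of 4 lines was hybridised, as biotin-labelled copies primed from the poly-A tail, to 3′ expression arrays, per the labels' protocols. The deposited values are log2 values; the submitters' processing notes name RMA and limma, with versions and parameters not given in the sources used here. RMA scales the 12 arrays jointly, so levels have meaning within this set. The scanner files were not analysed here.

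Gene names came from the platform annotation that GEO holds, which can be old, with symbols updated by gene ID from RefSeq (GRCh38.p14): 41097 of 54675 probe sets had 1 gene, 1801 had several and 11777 were unnamed. Of the single-gene probe sets 41043 matched by gene ID. Each of the 19775 genes was represented by its brightest single-gene probe set, judged by the mean of the 12 arrays. All 10 members had a value, and none was removed, since no filter on low values was used.

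limma 3.58.1 in R 4.3.3 fitted a mean per line to all 12 arrays (lmFit, eBayes), and every probe set was also tested on its own over all 54675. The model was tested on simulated data drawn with the same spread in every line, so that test did not cover the wider spread of SKR6LR. The members and lists were chosen with earlier results of these data known. Named genes are the members and at most 4 called genes with the largest differences per list and comparison; ETV1 was named after its value was seen. Of the lists, 13 of 15 other regulators, 10 of 12 receptors and ligands and 14 of 19 cascade genes had a value here. Promoter windows come from RefSeq; those of DUSP4 and DUSP5 were not analysed. Same-numbered arrays of different lines were compared by their deviations from the line means, and r was -0.0341 to 0.0948 over 18 pairs. These small values do not settle whether the numbers mark pairs. The main model did not use them, and a replicate block was run as an alternative.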

Additional observations from a re-analysis of the deposited data

Results flagged for a closer look

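The difference between 2 effects, SKR6LR minus SKR6 and SKR6CA minus SKR6-Vector, was called for 9 members by limma (adjusted p under 0.05). It was -3.88 for LRIG1, -1.42 for SPRY1, -0.96 for SPRY4 and -1.10 for DUSP4, which were further below their control in SKR6LR. It was 2.00 for ERRFI1, 0.40 for SPRED1, 0.64 for SPRED2, 2.08 for DUSP5 and 2.17 for DUSP6, which stood higher in SKR6LR, relative to the control, than in SKR6CA. The value of SPRED1 lost its call with 1 weight per line (adjusted p = 0.0906; 0.00773 to 0.0906 over its 4 alternatives).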

How the results depend on the processing

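In SKR6LR against SKR6, the 3 higher and 5 lower members kept their call under every alternative that gave them a value, except that LRIG1 and SPRY4 have no probe set outside the _s_at and _x_at kinds, so that setting left 3 lower of 8. LRIG1 ranged from -4.06 to -0.98 and DUSP5 from 2.32 to 2.85. Cyclic loess moved the share of higher calls over all genes from 40.8% to 51.4% and left the counts of members at 3 and 5. Leaving out 1 array in turn gave 3 higher and 5 lower throughout for SKR6LR against SKR6; 0 to 1 higher and 3 to 6 lower for SKR6CA against SKR6-Vector; 1 to 5 higher and 1 to 3 lower for SKR6-Vector against SKR6; and 0 to 2 higher and 3 to 4 lower for SKR6CA against SKR6. In SKR6CA against SKR6-Vector the replicate block, weights per array or per line, and only the compared arrays each gave 1 higher member, and a threshold of 0.01 gave 3 lower. In SKR6-Vector against SKR6 both kinds of weight and only the compared arrays gave 5 higher; the filter on low values (mean of at least 6) and the 0.01 threshold gave 1 higher; the mean of probe sets and the 0.01 threshold gave 1 lower, and leaving out _s_at and _x_at probe sets 0. In SKR6CA against SKR6, cyclic loess, the trend with robust fitting, both weights, only the compared arrays and the filter gave 2 higher; the mean of probe sets, every probe set tested and the 0.01 threshold gave 0 higher; and leaving out _s_at and _x_at probe sets gave 2 lower. The replicate block moved no other count by over 1.5 times, and 7 of 12 arrays correlated best with an array of their own number.

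Apart from SPRED1 in SKR6CA against SKR6-Vector, values that changed sign were not called on either side. SPRED1 in SKR6LR against SKR6 (-0.015) became 0.029 without SKR6 replicate 3, 0.034 without SKR6LR replicate 2, 0.12 under cyclic loess and 0.0050 with array weights. DUSP6 there (0.11) became -0.27 without SKR6LR replicate 2 and -0.028 with array weights or the mean of probe sets. In SKR6CA against SKR6-Vector LRIG1 became 0.040 with the mean of probe sets, and SPRED2 -0.003 without SKR6CA replicate 3 and -0.048 with the mean of probe sets; against SKR6, DUSP4 became 0.21 and SPRED1, called against SKR6-Vector, 0.28. In SKR6-Vector against SKR6 ERRFI1 became -0.0010, -0.015 and -0.0080 without SKR6 replicates 1 and 2 and SKR6-Vector replicate 1, and SPRY1 -0.16 with the mean of probe sets. SPRY2 in SKR6CA against SKR6 became 0.019 without SKR6 replicate 1 and 0.023 without SKR6CA replicate 2. Leaving out 1 array in turn gave lowest and highest values of -0.074 and 0.034 for SPRED1 and -0.27 and 0.41 for DUSP6 in SKR6LR against SKR6, -0.003 and 0.16 for SPRED2 in SKR6CA against SKR6-Vector, and -0.088 and 0.023 for SPRY2 in SKR6CA against SKR6. The cause of these changes was not tested. Of the 22 member probe sets 7 had a mean under 6, where signal near background limits what can be seen.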

Other observations

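The order of the SKR6LR arrays seen in the Sproutys and phosphatases, replicate 1 lowest and replicate 2 highest, also occurred in 8 of the 15 ERK-driven genes. Of all genes, 22.2% had it. The gaps of the 8 genes ran from 0.04 (FOSL1), too small to give an order weight, to 2.36 (EMP1). PHLDA1 read 8.53, 10.78 and 9.65 on SKR6LR replicates 1, 2 and 3, and EMP1 read 6.26, 8.62 and 7.59, gaps of 2.24 and 2.36 between the lowest and the highest array. The immediate-early gene EGR1 ran the other way, at 12.36, 12.02 and 12.27, and so did FOS, with replicate 2 lowest and replicate 1 highest. Among other lists the order occurred in 7 of 13 other negative regulators, 4 of 11 relatives, 3 of 14 cascade genes and 1 of 10 receptors and ligands.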
